A study of Mus musculus with 60 samples.

Results

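The p53 target genes described here are Ccng1, Trp53inp1, Psrc1, Ei24, Ephx1, Eda2r, Cdkn1a, Mdm2, Bax and Pmaip1, chosen by gene symbol as 10 genes on which p53 is known to act. Probe sets whose annotation gives 1 of these symbols alone numbered 17 of the 45101 on the array, and they cover 9 of the 10 genes. No probe set carried Bax, or Trp53 itself, as its single symbol, and neither is analysed here. The 9 genes are 9 of the 18194 with a single symbol, and all 9 were among the 12791 genes that exceeded the median of the array on 8 or more arrays and were tested. Eda2r passed that filter on 27 of the 60 arrays, whereas the other 8 genes passed it on 58 to 60.

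p53, the product of Trp53, is a transcription factor that is stabilised by DNA damage and by oncogene signals. It binds a response element made of a pair of half-sites and raises transcription of genes for cell cycle arrest, DNA repair and cell death, and also of Mdm2, whose product marks p53 for degradation. In mouse skin treated with a carcinogen and a tumour promoter, loss of p53 function is known as an event of malignant progression.

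Expression was measured in 60 carcinoma samples from 55 FVBBX mice, made by crossing SPRET/Ei with FVB/N and the hybrids back to FVB/N, so that each animal carries a different set of Mus spretus alleles. All mice had DMBA, a mutagen, and TPA, a tumour promoter, applied to the dorsal skin, so no group is untreated and no normal skin was used here. Tumours fall into spindle carcinoma labelled p53 mutant (5 tumours from 4 mice), spindle carcinoma not so labelled (9 from 9), squamous cell carcinoma (SCC) labelled p53 mutant (8 from 8) and SCC not so labelled (30 from 27). A further 2 mutant tumours and 6 not mutant tumours, from 2 and 5 mice, have no histology label and enter no comparison. The labels give the p53 state as yes or no, with neither the mutation, its allele nor the way it was found, and mice are not stated to be of 1 age. Sex and an origin, F1BSF1 to F1BSF4, are labelled too. Each group compared holds both sexes and more than 1 origin, in unequal shares, and spindle p53 mutant mice came from F1BSF1 and F1BSF3 alone. Values are log2 RMA signals, in which a difference of 1 is a doubling. Each value is relative to the whole array, and levels of different probe sets cannot be set against each other.

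Array medians lay between 4.43 and 4.56. On 12 arrays the sex markers went against the sex label, among them SCC p53 mutant replicates 2 and 8 and both tumours of 1 spindle p53 mutant mouse (replicates 4 and 5). Only 3 of the 12 had the markers of the opposite sex, while 6 had those of both sexes and 3 those of neither. A further check found 4 arrays in 2 pairs of highest Pearson's r between different mice, of which 3 are SCC p53 not mutant (replicates 15, 18 and 19). They are called nearly identical here. The r was 0.9907 for replicate 15 with an array without a histology label, and 0.9877 for replicates 18 and 19. The next highest r between mice was 0.9854, so the second pair barely stood out. Its arrays were at 6.76 and 7.44 for Psrc1 and at 8.88 and 8.95 for Ei24. Whether any array is a duplicate was not tested. Keratinocyte markers, 9 of the 10 listed, were expected to be high in SCC, yet their mean was under 8 on 4 SCC p53 not mutant arrays, with a lowest mouse at 4.66, and above 10 on 5 of the 14 spindle arrays. Calls of members that change without these arrays are given with the result.

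Promoter sequences are shown first, as a description. RefSeq promoter windows (GRCm38.p6, from 250 bases before to 50 after an annotated start) were held for 8 of the 10 genes, in 10 windows, and Trp53inp1 and Pmaip1 have none in the table used. Each window was searched on both strands for a full site, meaning 2 copies of the p53 half-site consensus of 10 bases with 0 to 13 bases between them and at most 1 mismatch in all, with the C and G of each core kept. Such a site was found in 2 of the 10 member windows and in 0.63% of 32851 windows of the same length. The 2 windows are those of Ccng1, at chr11:40755237-40755536 on the minus strand, and of Cdkn1a at the upstream one of its 2 annotated starts, at chr17:29090729-29091028 on the plus strand, with the half-sites of every full site in capitals.
Ccng1: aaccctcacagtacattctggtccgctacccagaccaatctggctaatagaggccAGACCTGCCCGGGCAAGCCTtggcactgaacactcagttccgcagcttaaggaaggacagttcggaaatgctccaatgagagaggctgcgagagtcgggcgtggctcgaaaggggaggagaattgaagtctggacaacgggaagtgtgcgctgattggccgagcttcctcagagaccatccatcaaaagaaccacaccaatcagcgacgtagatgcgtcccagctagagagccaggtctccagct
Cdkn1a: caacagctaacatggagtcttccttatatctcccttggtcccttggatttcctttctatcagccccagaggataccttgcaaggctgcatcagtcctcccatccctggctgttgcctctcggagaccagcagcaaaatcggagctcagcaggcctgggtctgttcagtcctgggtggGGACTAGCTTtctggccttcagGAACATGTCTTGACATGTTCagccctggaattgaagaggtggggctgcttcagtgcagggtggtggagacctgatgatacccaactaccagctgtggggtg
The Ccng1 site began 195 bases before the annotated start and had 1 mismatch. The Cdkn1a window held 2 full sites that share a half-site. One, with half-sites that began 73 and 51 bases before the start and 12 bases between them, had 0 mismatches, and the other, with adjoining half-sites that began 51 and 41 bases before it, had 1. An exact half-site, with or without a full site, was present in 5 of the 10 windows and in 8.4% of all windows. Of the genes tested, Ei24 and Mdm2 held a half-site without a full site, at chr9:36797325-36797354 and chr10:117710925-117710954, both on the minus strand and with the half-site in capitals.
Ei24: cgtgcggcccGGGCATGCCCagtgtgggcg
Mdm2: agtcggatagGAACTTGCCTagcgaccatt
The windows of Ephx1, Psrc1 and Eda2r held neither. A match is a description of these letters and not evidence of binding. Sequence outside the windows was not searched, so a window without a site does not show that its gene lacks one.

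The first question was whether target mRNA differs with the p53 label within 1 histology. In SCC, 1 of the 9 genes passed the test. Psrc1, which encodes a protein that binds spindle microtubules, fell 2.38-fold in SCC labelled p53 mutant (log2 difference −1.25, SE 0.23, limma adjusted p = 0.0115, the second smallest p of all genes). Trp53inp1, Ephx1, Ei24, Ccng1 and Eda2r also lay lower and did not pass, with differences between −1.41 and −0.52. Cdkn1a, Mdm2 and Pmaip1 differed by −0.18, 0.01 and 0.47.

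**Figure D1:**
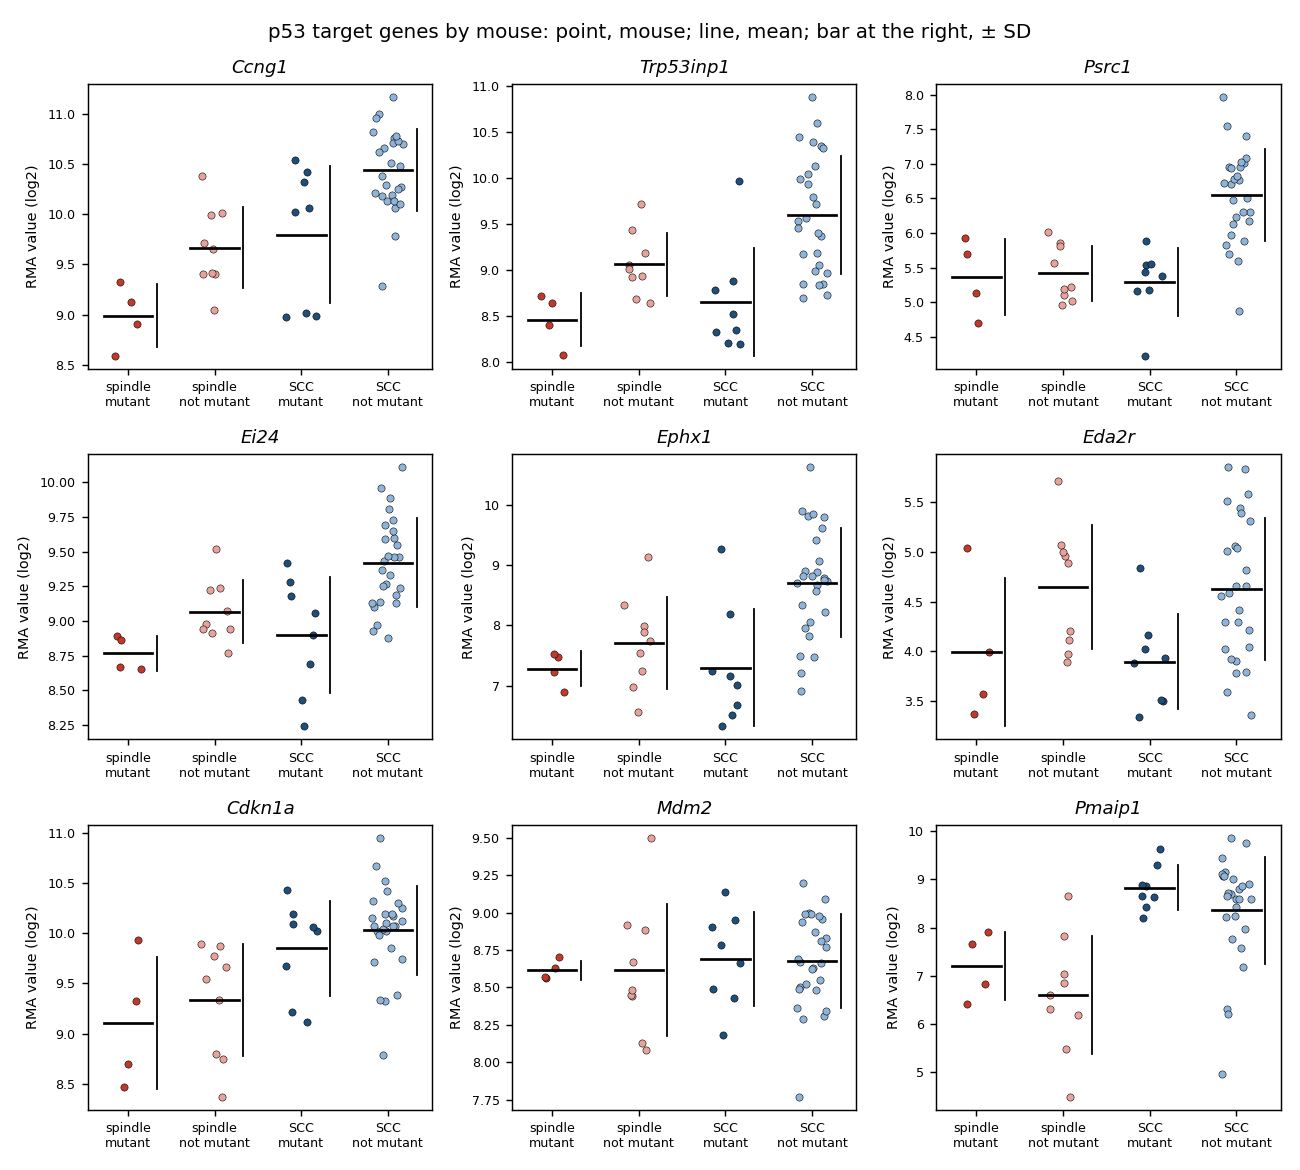
RMA value (log2) of the 9 genes in each mouse, by histology and p53 label, with a line for the mean and a bar for ± 1 SD. In SCC the 8 p53 mutant mice lie between 4.23 and 5.88 for Psrc1, where the 27 not mutant mice lie between 4.87 and 7.97.

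Over all genes tested, limma called 9 genes in this comparison, 0.0704% of 12791, with 6 higher and 3 lower (1317 at unadjusted p under 0.05). Lower calls alone made up 0.0235% of the genes tested. The median difference of the 9 members was −0.65 and 7 of the 9 were below 0. The members were chosen with results on the p53 label in these tumours known, so their direction is not independent support.

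Psrc1 had a lowest value of 4.23, a median of 5.41 and a highest of 5.88 in SCC labelled p53 mutant (n = 8), against 4.87, 6.71 and 7.97 in SCC not so labelled (n = 27). All 8 mutant mice lay below the median of the other group and 1 lay below its lowest mouse, while 4 of the 27 not mutant mice lay below the highest mutant mouse, so the groups overlapped. Psrc1 signals were modest, with a mean of 5.30 ± 0.49 in mutant and 6.54 ± 0.66 in not mutant SCC (SD, n = 8 and 27), where array medians lay between 4.43 and 4.56. A second Psrc1 probe set was also called when every probe set was tested (−0.78, adjusted p = 0.0422, against −1.25 and 0.0169 for the first). The third was at 2.84 ± 0.09 in mutant and 3.02 ± 0.27 in not mutant SCC (SD, n = 8 and 27), and was above the array median on 0 arrays.

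The Psrc1 call did not hold in 3 refits, although the difference kept its sign. Without the 12 arrays that disagree with their sex label it was −1.31 (adjusted p = 0.0819), with the grade of differentiation as a covariate −1.07 (adjusted p = 0.111), and among poorly differentiated tumours alone, where no gene passed, −1.23 (adjusted p = 0.389). Without the nearly identical arrays it was −1.28 (adjusted p = 0.00351). Grade goes with the label here, since 5 of 8 mutant SCC mice but 4 of 27 not mutant SCC mice had poorly differentiated tumours.

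**Figure D2:**
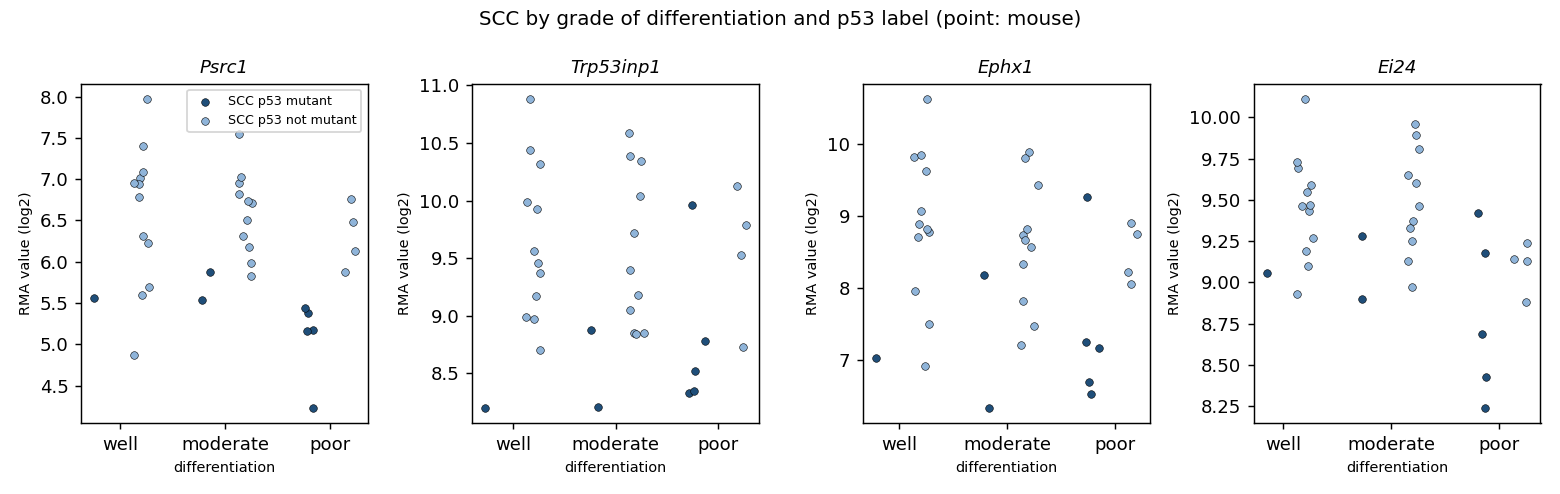
RMA value (log2) of Psrc1, Trp53inp1, Ephx1 and Ei24 in each SCC mouse by grade of differentiation, with p53 mutant mice in dark and not mutant mice in pale blue. Among poorly differentiated SCCs, Psrc1 was between 4.23 and 5.44 in the 5 mutant mice and between 5.88 and 6.76 in the 4 not mutant mice.

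Within poorly differentiated SCC, Psrc1 did not overlap between the labels (limma adjusted p = 0.389, 0 genes called). How many of all genes were apart in this way was not counted. Ephx1 did overlap, with 6.52 to 9.26 in mutant and 8.05 to 8.90 in not mutant mice. The differences of 5 genes were smaller there than over all grades, at −0.34 for Ccng1 (adjusted p = 0.840), −0.38 for Eda2r (0.885), −0.30 for Ei24 (0.778), −1.10 for Ephx1 (0.667) and −0.76 for Trp53inp1 (0.626), while Cdkn1a was at −0.35 (0.877) and Pmaip1 at 0.75 (0.856). With grade as a covariate Ei24 was at −0.36 (adjusted p = 0.406) and Ephx1 at −1.34 (0.187). Between poor and well differentiated SCC that were not p53 mutant (4 and 12 mice), limma called 0 members and 0% of genes (600 at unadjusted p under 0.05). Psrc1 differed there by −0.26 (95% interval −1.04 to 0.52) and Ei24 by −0.36 (−0.72 to 0.00), with poor minus well.

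Trp53inp1, a stress-induced protein that assists p53 in triggering cell death, had a lowest value of 8.20, a median of 8.44 and a highest of 9.96 in p53 mutant SCC, against 8.70, 9.53 and 10.88 in not mutant SCC. Of the 8 mutant mice 5 lay below every not mutant mouse, and 1, replicate 4, stood above the other mutant mice. The difference was −0.95 (SE 0.22, adjusted p = 0.0600), and the second probe set gave −0.75. With the mean of the keratinocyte markers as a covariate it passed, at −0.97 (adjusted p = 0.0397), and likewise without the arrays whose keratinocyte markers go against the histology label, at −1.04 (adjusted p = 0.0290).

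Ephx1, which encodes microsomal epoxide hydrolase, had the largest difference of the 9 genes, −1.41 (SE 0.34, adjusted p = 0.0606). Its lowest, median and highest values were 6.33, 7.09 and 9.26 in mutant and 6.91, 8.75 and 10.62 in not mutant SCC. Of 8 mutant mice 7 lay below the not mutant median and 3 below the lowest not mutant mouse. Ei24, a protein of the endoplasmic reticulum tied to cell death and autophagy, had 8.24, 8.98 and 9.42 in mutant against 8.88, 9.43 and 10.11 in not mutant SCC. All 8 mutant mice lay below the other group's median, with a difference of −0.52 (SE 0.13, adjusted p = 0.0673). With the keratinocyte covariate both passed, Ephx1 at −1.44 (adjusted p = 0.0397) and Ei24 at −0.54 (adjusted p = 0.0334), and Ei24 also passed without the arrays whose keratinocyte markers go against the histology label (−0.55, adjusted p = 0.0428). Both were smaller among poorly differentiated tumours alone, at −1.10 and −0.30.

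Ccng1, cyclin G1, which recruits a phosphatase that acts on Mdm2, had 8.98, 10.04 and 10.54 in mutant against 9.28, 10.48 and 11.17 in not mutant SCC. Here 7 of 8 mutant mice lay below the other group's median, and the difference was −0.65 (SE 0.18, adjusted p = 0.115). Its other 2 probe sets gave −0.88 and −0.82, so the 3 agreed in sign. Eda2r, a receptor of the tumour necrosis factor family, had 3.34, 3.90 and 4.84 in mutant and 3.36, 4.59 and 5.85 in not mutant SCC. Most mutant values were below the array median, so the difference of −0.73 (SE 0.26, adjusted p = 0.264) rests on dim signals.

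Cdkn1a, the p21 inhibitor of cyclin-dependent kinases, had 9.11, 10.04 and 10.43 in mutant against 8.79, 10.07 and 10.95 in not mutant SCC. The groups overlapped almost fully, and the difference was −0.18 (95% interval −0.57 to 0.21). Mdm2, the ubiquitin ligase that limits p53, had 8.18, 8.72 and 9.14 against 7.77, 8.67 and 9.20, a difference of 0.01 (95% interval −0.25 to 0.28) that turned negative in several refits. Pmaip1, the cell death protein Noxa, had 8.20, 8.76 and 9.64 in mutant against 4.96, 8.65 and 9.87 in not mutant SCC, a difference of 0.47 (95% interval −0.35 to 1.28).

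The 8 mutant SCC mice differed in how many members were low. Of the 9 genes, 4 to 9 lay below the not mutant median in each mouse, with 9 in replicates 3 and 6 and the fewest, 4, in replicate 4. That mouse was above the not mutant median for Ccng1, Trp53inp1, Ephx1, Eda2r and Pmaip1. In each of the other 7 mice all 6 of Ccng1, Trp53inp1, Psrc1, Ei24, Ephx1 and Eda2r were below it. These 6 are the members with the largest falls over these same mice, so this count follows from that choice and is no separate support. The share of all genes below that median in each mouse was not counted.

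In spindle carcinoma, with 4 mutant and 9 not mutant mice, limma called 0 members and 0% of genes (752 at unadjusted p under 0.05). Ccng1 was at 8.59, 9.32, 8.91 and 9.13 in the 4 mutant mice, against a lowest of 9.05, a median of 9.65 and a highest of 10.38 in the 9 not mutant mice. All 4 lay below the other group's median and 8 of the 9 not mutant mice lay above the highest mutant mouse, with a difference of −0.68 (SE 0.27, adjusted p = 0.823). Trp53inp1 was at 8.08, 8.40, 8.64 and 8.72 in the mutant mice against 8.64, 9.01 and 9.72 in the others, a difference of −0.60 (adjusted p = 0.834). Psrc1 was at 4.71, 5.70, 5.14 and 5.93 in the mutant mice against 4.96, 5.22 and 6.01, and the groups overlapped, with a difference of −0.05 (95% interval −0.75 to 0.65).

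Ei24 was at 8.65, 8.67, 8.89 and 8.86 in the mutant spindle mice against 8.77, 8.98 and 9.52 (lowest, median, highest) in the not mutant ones, a difference of −0.30 (SE 0.19). Ephx1 was at 6.90, 7.48, 7.23 and 7.53 in the mutant mice against 6.56, 7.74 and 9.13, a difference of −0.42 (SE 0.50). All 4 mutant mice lay below the not mutant median in both genes, and for Ei24 2 of them lay below every not mutant mouse. Eda2r was at 3.99, 5.04, 3.37 and 3.57 in the mutant mice against 3.89, 4.89 and 5.71, with 3 of the 4 below the median and a difference of −0.65 (SE 0.39).

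The cell cycle inhibitor Cdkn1a was at 8.47, 8.70, 9.93 and 9.32 in the mutant spindle mice against 8.37, 9.54 and 9.89 in the not mutant ones, a difference of −0.23. Mdm2 was at 8.56, 8.57, 8.70 and 8.63 against 8.08, 8.48 and 9.50, a difference of 0.00 (95% interval −0.40 to 0.40), and no mutant mouse lay below the not mutant median. Pmaip1 differed by 0.60 (95% interval −0.62 to 1.81). The median of the 9 was −0.30. All 9 keratinocyte markers were higher in the mutant spindle mice, by a median of 1.40 with none called, and their mean was 7.57 to 11.33 there, against 5.28 to 11.31 in the others, and the part of this in the members' values was not tested. With histology as a covariate over all 48 mice, limma called 0 members and 3 genes, 0.0235% (1247 at unadjusted p under 0.05), with adjusted p of 0.0627 for Ccng1 and Trp53inp1, 0.0658 for Ei24 and 0.0688 for Psrc1. Without 1 spindle p53 mutant mouse, that with replicates 4 and 5, these 4 passed, with Psrc1 at −0.98 (adjusted p = 0.0229). Without replicate 3 only Trp53inp1 passed among the members (−0.87, adjusted p = 0.0499), and without replicate 1 or 2 limma called 0 genes.

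Whether the p53 difference itself differs between the histologies was tested as an interaction. It called 0 members and 0% of genes (797 at unadjusted p under 0.05). The largest member was Psrc1, whose p53 difference was higher by 1.20 in spindle than in SCC (SE 0.42, adjusted p = 0.757), and the next was Ephx1 at 0.98 (95% interval −0.23 to 2.20). The others lay between −0.04 and 0.35.

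**Figure D3:**
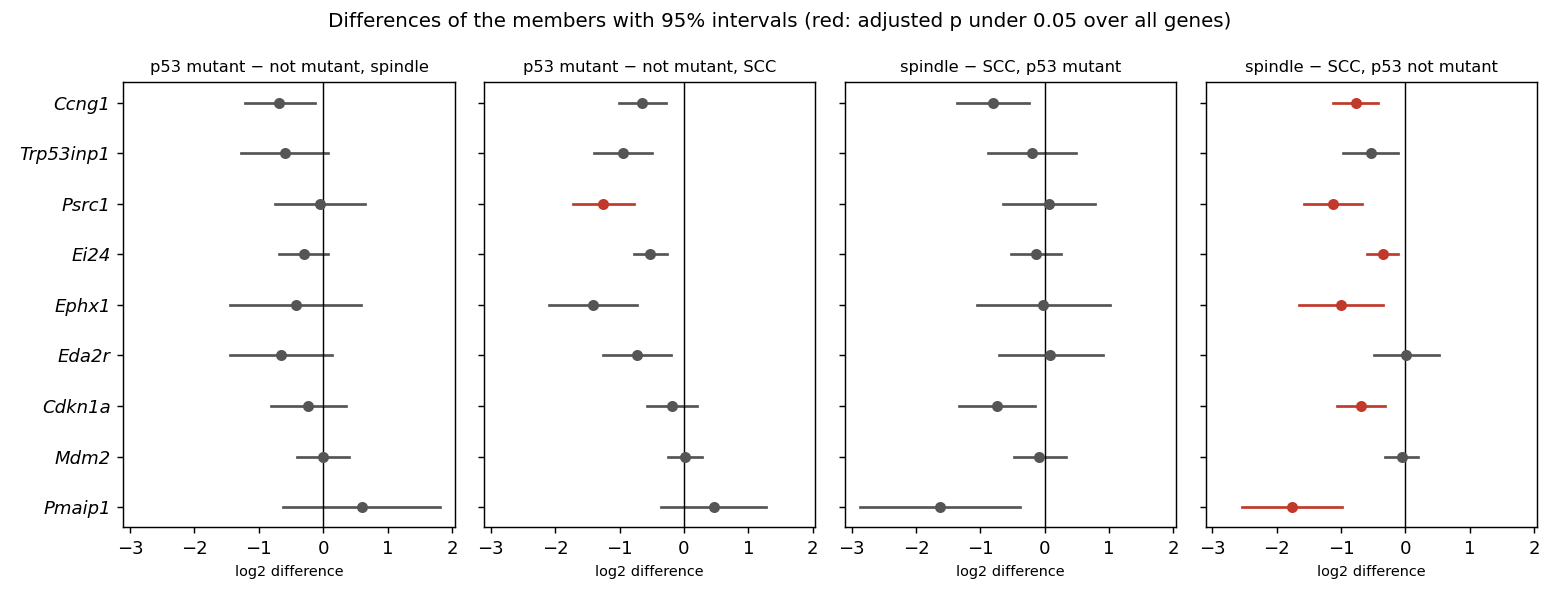
Log2 difference of each member with its 95% interval in the 4 comparisons within a histology or within a p53 label, in red where the adjusted p was under 0.05. Psrc1 alone is red for the p53 label in SCC at −1.25, and 6 genes are red for spindle minus SCC among tumours not p53 mutant.

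The second question was how the targets differ with histology within a p53 label. Among tumours not p53 mutant, 6 of the 9 genes fell in spindle carcinoma (9 mice) relative to SCC (27 mice), and none rose. They are Pmaip1 by 3.39-fold (−1.76, SE 0.39, adjusted p = 0.00124), Psrc1 by 2.18-fold (−1.13, SE 0.22, adjusted p = 0.000675), Ephx1 by 2.00-fold (SE 0.32, adjusted p = 0.0198), Ccng1 by 1.71-fold (−0.77, adjusted p = 0.00143), Cdkn1a by 1.62-fold (−0.69, adjusted p = 0.00532) and Ei24 by 1.28-fold (−0.35, adjusted p = 0.0284). The comparison called 2984 genes, 23.3% of those tested (4510 at unadjusted p under 0.05), and 10.2% were called lower. Ephx1 did not pass without the arrays that disagree with their sex label (−0.92, adjusted p = 0.0592), nor Ei24 with every tumour kept (−0.34, adjusted p = 0.0537). Trp53inp1 differed by −0.54 (adjusted p = 0.0616) and passed without the nearly identical arrays (−0.57, adjusted p = 0.0445) and at a common 75th percentile (−0.57, adjusted p = 0.0485). Mdm2 differed by −0.06 and Eda2r by 0.01.

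Pmaip1 had a lowest value of 4.48, a median of 6.59 and a highest of 8.65 in spindle carcinoma, against 4.96, 8.65 and 9.87 in SCC, all not p53 mutant. All 9 spindle mice lay below the SCC median. Psrc1 had 4.96, 5.22 and 6.01 in spindle carcinoma against 4.87, 6.71 and 7.97 in SCC, again with all 9 below the SCC median. Cdkn1a had 8.37, 9.54 and 9.89 in spindle carcinoma against 8.79, 10.07 and 10.95 in SCC. All 9 spindle mice were below the SCC median for Cdkn1a and for Ccng1 as well, and in each of these genes some SCC mice lay below the highest spindle mouse.

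Ccng1 had 9.05, 9.65 and 10.38 in spindle carcinoma against 9.28, 10.48 and 11.17 in SCC. Its other 2 probe sets were also called, at −0.94 and −0.75, as were the second probe sets of Psrc1 at −0.66 and of Cdkn1a at −0.72. Ephx1 had 6.56, 7.74 and 9.13 in spindle carcinoma against 6.91, 8.75 and 10.62 in SCC, and Ei24 had 8.77, 8.98 and 9.52 against 8.88, 9.43 and 10.11. In both genes 8 of the 9 spindle mice lay below the SCC median. Mdm2, at 8.08, 8.48 and 9.50 in spindle carcinoma against 7.77, 8.67 and 9.20 in SCC, overlapped almost fully, with 5 of 9 below that median.

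Markers of other cell types moved with this comparison. Of 10 mesenchymal markers 5 rose in spindle carcinoma, Pdgfra by 2.01, S100a4 by 1.66, Zeb1 by 1.61, Vim by 1.46 and Fn1 by 1.40, and Thy1 fell by 0.83. The mean of the 10 ranged from 10.62 to 12.04 in spindle carcinoma and from 9.15 to 12.13 in SCC, and of 6 macrophage markers C1qa rose, by 0.94. The part of these mesenchymal and macrophage markers in the members' differences was not tested. All 9 keratinocyte markers tested fell in spindle carcinoma, and their mean ranged from 5.28 to 11.31 there and from 4.66 to 11.52 in SCC, with medians of 7.00 and 11.13. With that mean as a covariate, or among poorly differentiated tumours alone (9 against 4 mice), limma called 0 genes and 0 members, with Pmaip1 at −0.43 and −1.48 and Psrc1 at −1.28 and −0.89. Without the arrays whose keratinocyte markers go against the histology label, 7 members passed, Trp53inp1 being added, with Pmaip1 at −2.35. In bulk tumour RNA, fewer cells of a type and less RNA per cell cannot be told apart.

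Among p53 mutant tumours, with 4 spindle and 8 SCC mice, limma called 0 members and 0% of genes (1552 at unadjusted p under 0.05). The spindle mice came from origins F1BSF1 and F1BSF3. The SCC mice came from F1BSF2 and F1BSF4, apart from replicate 8, which came from F1BSF1. Histology thus largely goes with origin among these mice, and the 2 can hardly be told apart. Pmaip1 was at 7.65, 6.41, 7.91 and 6.82 in the 4 spindle mice. In the 8 SCC mice it was at 8.20, 8.76 and 9.64 (lowest, median, highest), so the groups did not overlap. How many of all genes were apart in this way was not counted, and Pmaip1 ranked 471 by p. The difference was −1.63 (SE 0.62, adjusted p = 0.298), and −2.44 (adjusted p = 0.00503) without the arrays whose keratinocyte markers go against the histology label, which left 2 spindle mice. Ccng1 differed by −0.80 (adjusted p = 0.262) and Cdkn1a by −0.74 (adjusted p = 0.320). Psrc1, at 0.07 (95% interval −0.64 to 0.79), differed by less than the spread between mice.

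Other p53 pathway genes were listed by role with earlier results known. Of 38 further targets tested, 1 fell and none rose with the p53 label in SCC, where 0.0235% of all genes tested were called lower. The 1 that fell was Polk, a DNA polymerase that copies past damaged bases, at 6.28 ± 0.41 in mutant and 7.07 ± 0.39 in not mutant SCC (SD, n = 8 and 27, difference −0.79, limma adjusted p = 0.0115). In spindle carcinoma Polk lay the other way, at 6.86 ± 0.34 in mutant and 6.58 ± 0.28 in not mutant mice (SD, n = 4 and 9), and no gene was called. The median of the 38 was −0.06, against −0.65 for the 9 members. The members were chosen with results on this label known, so these medians do not compare kinds of target. Of 14 genes that regulate p53 none passed in SCC.

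For spindle minus SCC among tumours not p53 mutant, 14 of the 38 fell and 1 rose, where 23.3% of all genes tested were called and 10.2% were called lower. The largest were Sfn, the 14-3-3 sigma protein that holds cells in G2 phase, at −2.20 (adjusted p = 0.00210), Perp, a desmosome protein of stratified epithelium, at −1.50 (adjusted p = 0.0360), and Notch1, a receptor of keratinocyte differentiation, at −1.13 (adjusted p = 0.00113). Gadd45a, a stress-induced growth arrest gene, rose by 0.75 (adjusted p = 0.0113). Of the 14 regulators 4 fell and none rose, with Trp63, the p53 family member of basal keratinocytes, at −3.05 (adjusted p = 0.00105), Cdkn2a, which encodes p16 and Arf, at −2.01 (adjusted p = 0.0136), and Ppp1r13l, which encodes the p53 inhibitor iASPP, at −1.27 (adjusted p = 0.000760). Trp63 is also in the keratinocyte list.

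How the members vary with each other was described in the 27 SCC mice not labelled p53 mutant, over 36 pairs. Pairs of other genes were not counted for comparison, so the counts do not set the members apart. Pearson's r was above 0 in 33 pairs, with a median of 0.46. After Benjamini-Hochberg adjustment over the pairs 22 passed (two-sided permutation test, 100000 permutations), all of them positive. The highest were Ccng1 with Ei24 (r = 0.76, rho = 0.75), Ccng1 with Ephx1 (0.70 and 0.73) and Ei24 with Ephx1 (0.69 and 0.73), each with an adjusted permutation p of 0.00108 for r and 0.000720 for rho. Without the 2 mice farthest from the median of the first gene named in each pair, they were 0.72, 0.57 and 0.66. Psrc1 was apart from part of the group, with r of 0.03 to Pmaip1 and −0.02 to Mdm2, although it reached 0.56 with Eda2r. It was not alone in this, since Eda2r had r of −0.05 to Pmaip1 and −0.07 to Cdkn1a, and Cdkn1a had 0.07 to Mdm2.

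**Figure D4:**
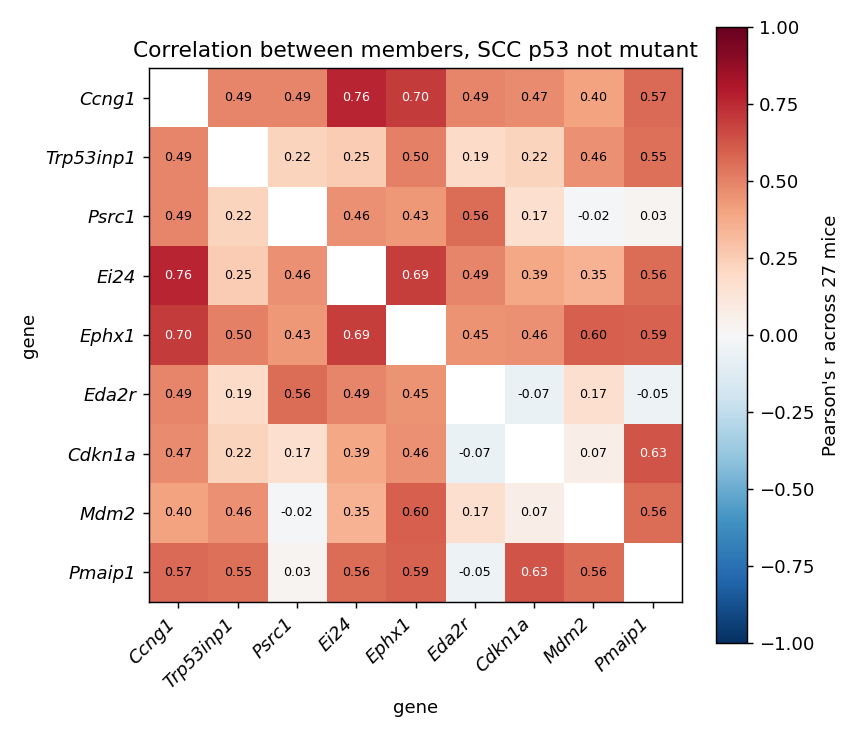
Pearson's r between the 9 members across the 27 SCC mice not labelled p53 mutant, written in each cell and coloured from blue (−1) to red (1). The block of Ccng1, Ei24 and Ephx1 stands between 0.69 and 0.76, and Psrc1 with Mdm2 is at −0.02.

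Keratinocyte markers moved with some members in these 27 mice. The mean of the keratinocyte markers had r = 0.86 with Pmaip1 (rho = 0.58, adjusted permutation p = 9e-05 for r and 0.0100 for rho over 9 genes) and 0.65 with Cdkn1a (rho = 0.77, adjusted permutation p = 0.00427 and 0.000180). Without the 2 mice farthest from the median of the marker mean, r was 0.68 and 0.70. Psrc1 was at −0.02. Leaving out the 5 mice with nearly identical arrays or low keratinocyte markers gave a median r between members of 0.34 over 22 mice, and r between Cdkn1a and Pmaip1 then was 0.18, against 0.63 over all 27.

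The gene with the pattern most like each member over the same 27 mice was picked by the highest Pearson's r among all genes tested, as a description. It was Dcxr for Ccng1 (0.83), Rnf169 for Trp53inp1 (0.80), Nop10 for Psrc1 (0.66), Tango6 for Ei24 (0.85), Gsta3 for Ephx1 (0.83), Surf1 for Eda2r (0.79), Hbegf for Cdkn1a (0.85), Gss for Mdm2 (0.86) and Ap1s3 for Pmaip1 (0.93). The mean of the member z values was followed most closely by Dcxr (0.87), Gna15 (0.84), Tmprss11d (0.82), Atg9b (0.80) and Mgmt (0.80).

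A pair of samples was taken from each of 5 mice. In 2 of the pairs the sample titles share a carcinoma number, so these may be samples of 1 tumour, which the labels do not settle. The paired samples differed by a median of 1.39 (0.46 to 1.95) for Psrc1 and 1.47 (0.15 to 2.62) for Ephx1. The medians were 0.72 for Trp53inp1, 0.49 for Ccng1 and 0.40 for Eda2r, and Ei24 and Mdm2 differed least, by 0.16 and 0.29.

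Among the 7 mice without a histology label, Psrc1 was at 5.14 and 4.03 in the 2 p53 mutant mice, against 4.82 to 6.13 in the 5 not mutant mice. Trp53inp1 was at 9.41 and 8.30 in the mutant mice, against 8.67 to 9.47 in the others. In each gene 1 mutant mouse lay below all 5 others and 1 lay within their range. Mdm2 was at 9.12 and 8.34 in the mutant mice, against 9.17, 8.93, 9.25, 11.88 and 8.45 in the others, where 1 mouse stood far above the rest.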

How the data were processed

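RNA of 60 carcinomas was hybridised to Affymetrix arrays of the mouse genome. The authors deposited log2 values per probe set made with RMA, per the labels, which corrects background, quantile-normalises the arrays and summarises probes. The RMA version is not given in the sources used here. Arrays hold no counts, so their number limits precision. Polymorphisms of Mus spretus under a probe can lower its signal, and this was not tested. Symbols came from the 2016 platform annotation, updated through RefSeq (GRCm38.p6), which matched 34754 of 34958 probe sets with 1 symbol. For each gene the probe set of highest mean was used, and tumours of 1 mouse were averaged. Groups follow the labels. Mice in 4 groups were compared with limma 3.58.1 (lmFit, eBayes) in R 4.3.3, with Benjamini-Hochberg adjustment over 12791 genes and a threshold of 0.05. The study's methods name SAM, which was not run. Fits were tested on simulated data. Correlations and figures used scipy 1.17.1 and matplotlib 3.10.9 under Python 3.11.15. Named genes are the members, other p53 pathway genes past the threshold (the 6 largest each way) and the genes of highest correlation. The members and lists were chosen with earlier results of these data known. Alternatives covered filters, probe set choice, scaling, covariates and left-out arrays or mice. The removal of arrays whose keratinocyte markers go against the label, and of such mice or nearly identical ones from the correlations, was added after the data were seen.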

Additional observations from a re-analysis of the deposited data

Results flagged for a closer look

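Within groups of 4 to 10 mice, 36 sets of values were tested for 1 mouse far from the rest, of which chance gives about 1 in 20, and 3 were found. Trp53inp1 was at 9.96 in SCC p53 mutant replicate 4, with the nearest of the other mutant mice at 8.88 (gap 0.61 of the range, n = 8). Psrc1 was at 4.23 in SCC p53 mutant replicate 5, with the nearest at 5.16 (0.56, n = 8). Mdm2 was at 11.88 in 1 p53 not mutant mouse without a histology label, replicate 4, with the nearest at 9.25 (0.77, n = 5), and that mouse enters no comparison between groups.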

How the results depend on the processing

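Psrc1 in SCC kept its sign in all alternatives and lost its call in the 3 named in the report. In the comparisons below, counts are genes called over all genes tested, the main value standing first.

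For the p53 label in SCC, 9 genes became 16 with every probe set tested, 20 with probe sets averaged per gene, 19 with quantile normalization of the gene table, 14 with only the groups compared, 50 with the keratinocyte covariate, 1 without the arrays against the sex label, 5 with grade as a covariate, 0 among poorly differentiated tumours and 49 without the arrays against the histology label. The 1 member called became 4 with the keratinocyte covariate, 3 without the arrays against the histology label, and 0 without the arrays against the sex label, with grade as a covariate and among poorly differentiated tumours. Mdm2 (0.01) turned to −0.03 with the mean of probe sets and to −0.01 without nearly identical arrays, with grade as a covariate and without the arrays against the histology label.

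For the p53 label in spindle carcinoma, 0 genes became 1 without the arrays against the sex label and 1 without those against the histology label, and 0 to 1 when each mutant mouse was left out. Psrc1 (−0.05) was 0.03 with the keratinocyte covariate, 0.16 without the arrays against the histology label, 0.04 with every tumour kept and −0.24 to 0.17 without 1 mutant mouse. Pmaip1 (0.60) was −0.13 with the keratinocyte covariate.

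With histology as a covariate, 3 genes became 5 with every probe set, 1 with the mean of probe sets, 5 with quantile normalization, 14 with the keratinocyte covariate, 5 without the arrays against the sex label, 11 without those against the histology label, 0 with every tumour kept, 11 with origin as a covariate, 11 without the 3 arrays of largest Gapdh difference, 1 above the median on 30 arrays and 0 to 39 without 1 spindle mutant mouse. The 0 members called became 3 with the keratinocyte covariate, with origin and without the Gapdh arrays, 2 without the arrays against the histology label and 0 to 4 without 1 spindle mutant mouse. The count was 11 genes and 1 member without replicate 3, 39 and 4 without the mouse of replicates 4 and 5, and 0 genes without replicate 1 or 2. Mdm2 (0.01) was −0.05 with the mean of probe sets, −0.03 with the keratinocyte covariate, −0.01 without nearly identical arrays, and −0.02 without the arrays against the histology label and without the Gapdh arrays.

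For the interaction, 0 genes became 1 without the arrays against the sex label and 1 without those against the histology label. Ccng1 (−0.03) was 0.06 with the mean of probe sets and with origin, 0.08 without the arrays against the histology label, 0.01 without the Gapdh arrays and −0.14 to 0.10 without 1 mutant mouse. Cdkn1a (−0.04) was 0.06, 0.24 and 0.07 with the mean of probe sets, without the arrays against the histology label and without the Gapdh arrays, and −0.32 to 0.17 without 1 mouse. Pmaip1 (0.13) was −0.47 with the keratinocyte covariate, −0.09 without the arrays against the histology label, −0.01 with origin and −0.11 to 0.39 without 1 mouse. Eda2r (0.08) was −0.08 with sex and −0.27 to 0.29 without 1 mouse. Mdm2 (−0.02) was 0.01 without nearly identical arrays.

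For spindle minus SCC in p53 mutant tumours, 0 genes became 1 with only the groups compared, with the keratinocyte covariate and without nearly identical arrays, 1276 without the arrays against the histology label (0 members became 1) and 0 to 76 without 1 spindle mutant mouse, the 76 without replicate 3. Psrc1 (0.07) was −0.01 with the keratinocyte covariate, −0.05 without the arrays against the sex label and −0.11 to 0.29 without 1 mouse. Ephx1 (−0.02) was 0.17 with the keratinocyte covariate, 0.02 with every tumour kept and −0.10 to 0.11 without 1 mouse. Eda2r (0.09) was −0.11 with the keratinocyte covariate and −0.25 to 0.30 without 1 mouse. Mdm2 (−0.08) was 0.02 with that covariate.

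For spindle minus SCC in tumours not p53 mutant, 2984 genes became 4668 with every probe set, 4646 without the arrays against the histology label, and 0 with the keratinocyte covariate and among poorly differentiated tumours, where the 6 members called also became 0. Eda2r (0.01) was −0.36 with the keratinocyte covariate, −0.03 without the Gapdh arrays and −0.01 at a common 75th percentile. Mdm2 (−0.06) was 0.12 with the covariate and 0.04 without the arrays against the sex label.

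For poor minus well, 0 genes became 21 without the arrays against the sex label and 0 to 1 without 1 poorly differentiated mouse. Trp53inp1 (−0.10) was 0.16 without nearly identical arrays, 0.01 with sex and −0.30 to 0.17 without 1 mouse. Cdkn1a (0.02) was −0.02 with the mean of probe sets, −0.31 without the arrays against the sex label, −0.09 with sex and −0.22 to 0.21 without 1 mouse. Psrc1 (−0.26) was 0.11 without the arrays against the sex label. Mdm2 (−0.08) was 0.03 and Pmaip1 (−0.24) was 0.41 without nearly identical arrays, and −0.19 to 0.04 and −0.57 to 0.38 without 1 mouse.

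The median correlation between members was 0.42 over all 35 SCC mice centred on their label. No paired analysis was possible because replicate numbers only follow the order of the samples and the groups hold different mice. The causes of these changes were not tested, and 4 spindle p53 mutant mice limit every comparison that uses them.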
